A study of Danio rerio with 10 samples.

Results

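Zebrafish embryos carrying human TPM3(E151A) were compared with embryos carrying human TPM3(WT), with 1 RNA library from each line. The comparison covered 17577 of the 32265 genes in the table, namely those with at least 1 FPKM in 1 or both libraries. FPKM counts fragments per kilobase of transcript and scales them to the mapped fragments of the library, so it takes account of transcript length and depth. Both lines were AB fish with a Tol2 insertion in which the muscle promoter MLC2 drove the human TPM3 sequence and the heart promoter myl7 drove EGFP. The study screened injected embryos for a green heart. How the embryos of these libraries were selected was not stated. The labels give both samples as untreated whole embryos of 2 days, while the study's text writes of muscle. How many embryos went into each pool was not stated. The endogenous tropomyosin genes were present in both lines, so any mutant protein would be made beside normal fish tropomyosin. Protein was not measured here. The human transgene itself was not analysed here. A pair of libraries from the same series served as further reference points, TPM3(E151G) embryos without treatment and TPM3(E151G) embryos in L-carnitine, both labelled as whole embryos of 2 days. Values of adult muscle, at a labelled age of 6 months, are cited for a single gene. With 1 library for each line, the transgene line, the pool of embryos and the library cannot be told apart, and no value below carries a replicate error or a test.

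Tropomyosin is the coiled-coil protein that lies along actin filaments and, with troponin, sets when myosin can bind. TPM3 encodes the slow muscle form, and changes in it are known from congenital myopathies. At the labelled age a zebrafish embryo already has contracting trunk muscle and a beating heart, while many progenitors of the brain and retina are still dividing. Notch signalling between neighbouring cells holds such progenitors back from becoming neurons, and proneural transcription factors push them forward. Photoreceptor, synapse and cartilage genes come on as cells leave the cycle and mature.

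Most genes were close in level in the 2 libraries. The log2 ratio of FPKM + 1 in TPM3(E151A) over TPM3(WT) had a median of 0.02, with 5% of genes below -0.61 and 5% above 0.59, and 89.4% of genes were less than 1.5-fold apart. The cut for calling a gene apart was a 2-fold ratio on this scale, where the added 1 shrinks the fold of weak genes. By that cut 174 genes were higher in TPM3(E151A), which is 0.990% of the genes compared, and 175 were lower, which is 0.996%. Of these 349 genes 42 were listed at 0 in 1 of the libraries. Among all genes compared, 855 reached 1 FPKM only in TPM3(WT) and 410 only in TPM3(E151A). The entry rule fixed the direction of such genes, and the counts over gene lists include them. When both libraries were scaled to the same FPKM sum, the median of all genes moved by -0.17 and the counts became 147 higher and 444 lower, so the balance of higher and lower genes depends on the scaling. By any margin, 52.6% of genes were above their TPM3(WT) value and 47.4% below it, and the counts over gene lists stand beside these shares.

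**Figure D1:**
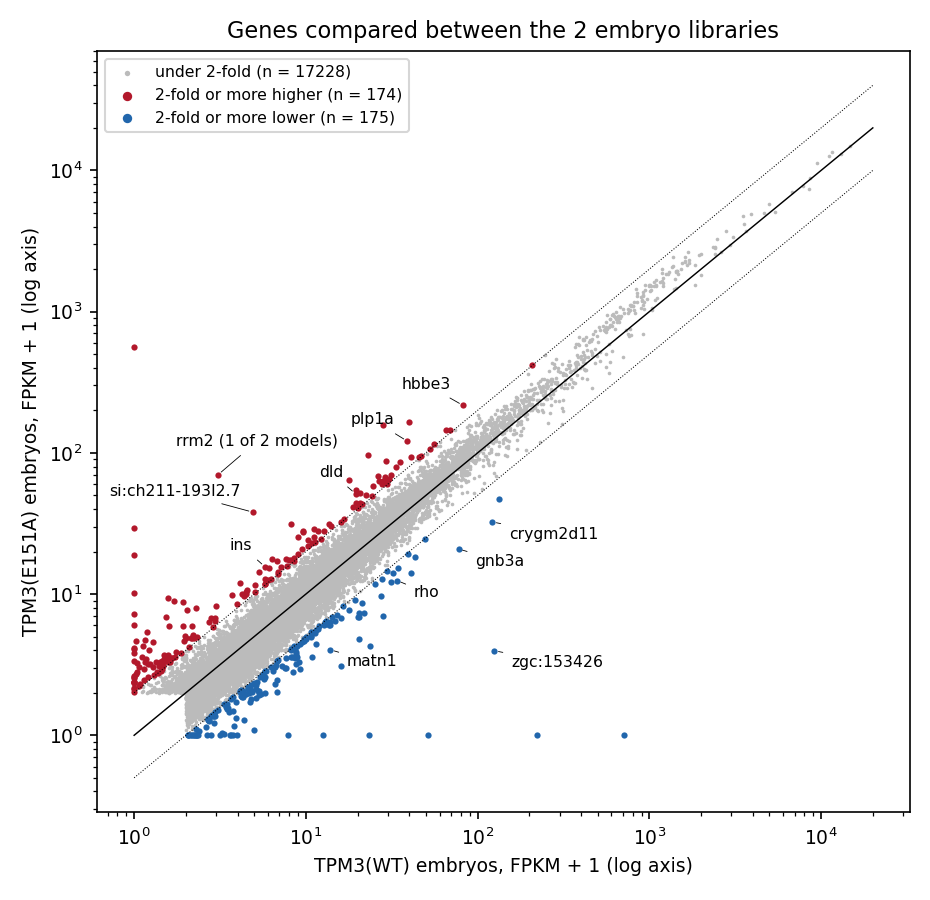
Each point is 1 of 17577 genes, with FPKM + 1 in TPM3(WT) embryos on the x axis and in TPM3(E151A) embryos on the y axis, both on log scales. The solid line marks equal values and the dotted lines mark a 2-fold difference, and the 174 red and 175 blue points lie on or beyond the dotted lines.

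The files hold no counts, but low values move in steps. Among 801 genes with an FPKM between 0.001 and 0.1 in both libraries, 25.3% had the same ratio within 0.05 on the log2 scale, as single fragments would give. The FPKM worth of 1 fragment in TPM3(E151A) was 1.34 times that in TPM3(WT). If each library was scaled to its own mapped fragments, the depth of the TPM3(E151A) library was 0.747 of that of TPM3(WT). The tool that scaled the values is not named, so this depth is an estimate. The absolute depth is unknown. Whole-embryo material was evident in both libraries. The 17 skeletal muscle markers with a value summed to 49522 FPKM in TPM3(E151A) and 44267 in TPM3(WT), the 49 lens markers to 9714 and 11754, the 24 neuron markers to 1971 and 2108, and the 19 erythrocyte markers to 4303 and 3190. Lens and neuron markers at these levels go with the label of whole embryos rather than with muscle alone.

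Genes of DNA replication were higher in TPM3(E151A) embryos without exception. All 51 gene models compared (of all genes, 52.6%) lay above their TPM3(WT) value, with a median log2 ratio of 0.68 beside 0.02 over all genes, and 49 of the 51 also lay above both TPM3(E151G) libraries. Over all genes compared, 30.1% had their highest value of the 4 embryo libraries in TPM3(E151A) and 24.7% had their lowest there. The clamp that holds DNA polymerase on its template, pcna, had 360 FPKM in TPM3(E151A), 195 in TPM3(WT), 265 in TPM3(E151G) and 198 in TPM3(E151G) with L-carnitine. The MCM helicase, which opens the origin, moved as a unit, since mcm2 to mcm7 all had log2 ratios between 0.71 and 0.84. As an example mcm5 had 37.2 FPKM in TPM3(E151A) and 20.5, 24.6 and 20.2 in TPM3(WT), TPM3(E151G) and TPM3(E151G) with L-carnitine. The origin licensing factor cdc6 was at 15.23 against 7.29 FPKM, and rrm1, the large subunit of the enzyme that makes deoxynucleotides, was at 93.4 against 45.5 FPKM. The members past 2-fold were rrm1 and 1 of the 2 models of rrm2, beside 0.990% of all genes that were that much higher. Most of the list lay between these extremes and equality.

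The small subunit rrm2 gave the largest ratio of any protein-coding gene, but it has 2 gene models on different chromosomes. The model on chromosome 19 had 68.9 FPKM in TPM3(E151A) and 2.08 in TPM3(WT), while TPM3(E151G) had 48.6 and TPM3(E151G) with L-carnitine had 28.2. The other model, on chromosome 20, had 156.6 and 133.99 FPKM in the first pair. Summed over both models the values were 226 and 136 FPKM, a log2 ratio of 0.72 and close to the median of the list. How the counting shared fragments between the copies is not known, and the low library for the chromosome 19 model was TPM3(WT), not TPM3(E151A).

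Mitosis genes followed the same direction. Of 59 compared, 56 were above TPM3(WT), with a median log2 ratio of 0.59, and 56 were above all other 3 embryo libraries. The mitotic kinase plk1 had 60.2 FPKM in TPM3(E151A) and 34.4 in TPM3(WT), and the mitotic cyclin ccnb1 had 65.8 and 38.3. The spindle protein nusap1 had 78.6 and 45.2. No mitosis gene reached 2-fold, which few of all genes did (0.990% higher and 0.996% lower). The gene farthest below was cenpv, at 0.67 against 1.83 FPKM, a direction that the entry rule fixed.

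Notch pathway genes supplied many of the genes past 2-fold. Their list, and the lists of proneural factors and neural progenitor genes, were chosen after the values were seen, so their counts describe the pattern and do not test it. The lists written first were chosen with earlier results of these data known, so their counts are descriptions too. Of 44 Notch gene models compared, 39 were above TPM3(WT), 18 passed 2-fold, none was lower by that much, and the median log2 ratio was 0.86. Over all genes compared 0.990% were 2-fold or more higher and 0.996% lower. In 34 of the 44 the TPM3(E151A) library was the highest of the 4.

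The ligands of the Delta family, which sit on the signal-sending cell, were among them. The ligand dld had 50.4 FPKM in TPM3(E151A), 18.5 in TPM3(WT), 26.4 in TPM3(E151G) and 21.7 in TPM3(E151G) with L-carnitine. For dla the values were 65.9, 28.0, 33.0 and 30.6 FPKM in the same order, and for dlb 84.9, 34.5, 47.4 and 36.9. Both TPM3(E151G) libraries thus lay much nearer to TPM3(WT) than to TPM3(E151A) for these ligands. The ligands dlc, jag1b and dll4 differed less, with log2 ratios of 0.60, 0.19 and 0.06. Jagged ligand jag1a stood between, at 8.76 against 4.19 FPKM.

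Among the receptors, notch1a had 57.6 FPKM in TPM3(E151A) and 23.7, 28.3 and 29.0 in the other libraries, and notch3 had 63.8 against 29.4, 22.1 and 30.3. The receptor notch1b was at 29.2 against 15.6 FPKM in TPM3(WT). The remaining receptor, notch2, was level at 11.1 and 11.9 FPKM. Modulators were higher as well. The glycosyltransferase lfng, which tunes the receptor's response to its ligands, had 87.3 against 43.9 FPKM, and the feedback inhibitors nrarpa and nrarpb, themselves targets of the pathway, had 112 against 57.1 and 78.0 against 32.4.

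The her genes encode repressors of the Hairy and Enhancer-of-split family that block proneural genes. Whether each her gene answered to Notch signalling here was not tested. The values of her8a were 50.9 FPKM in TPM3(E151A), 19.6 in TPM3(WT), 35.4 in TPM3(E151G) and 25.3 in TPM3(E151G) with L-carnitine, and those of her12 were 67.4, 25.4, 48.6 and 33.7. For her2 they were 28.0, 10.1, 25.7 and 17.7, so here TPM3(E151G) lay close to TPM3(E151A). For her4.1 TPM3(E151G) was the highest library, at 17.3 FPKM against 14.8 in TPM3(E151A) and 6.74 in TPM3(WT). Other members differed little. The genes her6 and her9 had log2 ratios of 0.37 and 0.47, and heyl, at 2.14 against 3.03 FPKM, was below TPM3(WT).

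Many of these her genes stand side by side in the genome (GRCz11, positions as deposited). On chromosome 11 all 9 genes compared between 41353999 and 41453173 were 2-fold or more higher, from her2 and both models of her15.1 to a row of genes with clone-based names. In that row si:ch211-193l2.7 had 37.0 FPKM in TPM3(E151A), 3.91 in TPM3(WT), 14.4 in TPM3(E151G) and 6.07 in TPM3(E151G) with L-carnitine, and the long noncoding RNA AL929185.2 had 157, 27.0, 53.02 and 32.6. On chromosome 23, between 21518370 and 21547925, 6 of 7 genes passed 2-fold, among them her12, her4.1 to her4.4 and si:ch73-21g5.7, the last at 166 against 38.8 FPKM. The remaining model in that span, a further her4.2, had 17.2 against 9.03 FPKM. Both spans were drawn from the first to the last gene of a run of higher genes. A high share inside them follows largely from that choice. Outside these spans 1 gene plotted nearby, igsf21b, was lower with a log2 ratio of -1.25. Members of such tandem arrays are close copies, so the split of fragments among them is uncertain, while the sum over both her15.1 models, 51.1 against 21.0 FPKM, and over both her4.2 models, 47.3 against 21.7, shows the same direction.

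**Figure D2:**
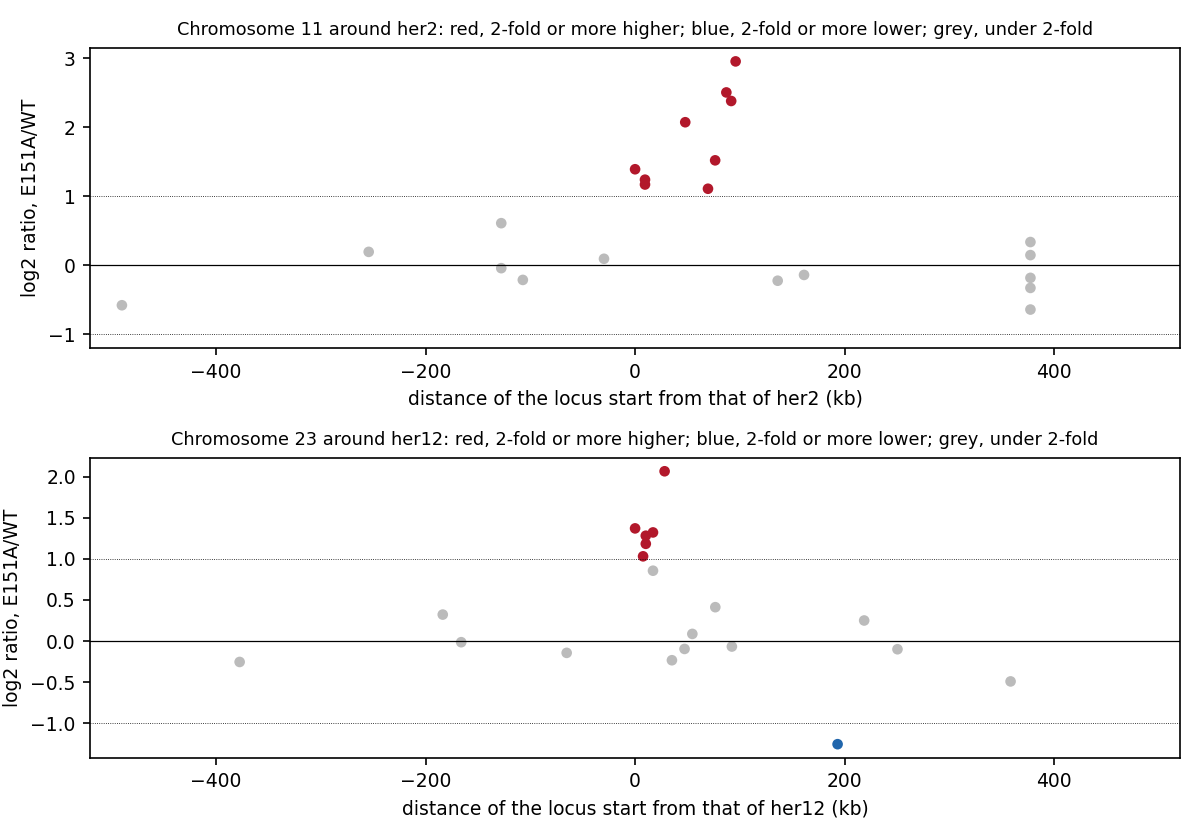
The log2 ratio of TPM3(E151A) over TPM3(WT) (y axis) is drawn for each gene compared within 500 kb of her2 on chromosome 11 (top) and of her12 on chromosome 23 (bottom), against the distance between locus starts in kb (x axis). Red points, 2-fold or more higher, crowd into the span that begins at each reference gene, and most genes on either side lie near 0.

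Neighbours were common among the genes counted. Of the 174 higher genes, 66 (37.9%) had another higher gene starting within 1000000 bases, beside 21.4% of all genes compared that had a higher gene that near. For the 175 lower genes these shares were 33.7% and 23.2%. Gene models that share a deposited locus have the same start, so they count as neighbours where both passed 2-fold. Such a locus was held by 38.5% of the higher genes and 28% of the lower genes, beside 26.4% of all genes compared. Another run of higher genes lay on chromosome 12 between 16470533 and 16829977, a deposited locus that merges several cathepsin L copies including ctslb.

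Proneural factors, the transcription factors that commit progenitors to a neural fate, and related factors of neuronal differentiation formed 1 list of 25. Of these 18 were above TPM3(WT) and 7 below, with 9 past 2-fold upward, 1 downward and a median log2 ratio of 0.59. The shares past 2-fold over all genes compared were 0.990% upward and 0.996% downward. For atoh1b, a regulator of hair cells and hindbrain granule neurons, the values were 27.0 FPKM in TPM3(E151A), 8.56 in TPM3(WT), 11.4 in TPM3(E151G) and 11.5 in TPM3(E151G) with L-carnitine. For ascl1b they were 53.3, 18.5, 33.1 and 23.3, and for neurog1 62.2, 25.5, 45.5 and 30.6. The retinal factor atoh7, needed for ganglion cells, had 42.5 against 20.1 FPKM, and the dorsal spinal cord factor olig3 had 16.2 against 5.82. Each of these had its highest value of the 4 libraries in TPM3(E151A).

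Members of the same list below TPM3(WT) included 4 neurod genes, which encode neuronal differentiation factors, while the related neurod4 was above it with a log2 ratio of 0.52. The values of neurod1 were 106 FPKM in TPM3(E151A), 168 in TPM3(WT), 194 in TPM3(E151G) and 180 in TPM3(E151G) with L-carnitine. Those of neurod6b were 23.1, 39.0, 48.2 and 40.2, and those of neurod2 were 1.14, 3.59, 4.41 and 3.73. TPM3(E151A) was the lowest library for all of these.

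Genes of neural progenitors themselves differed less. Of 33 compared, 26 were above TPM3(WT), but the median log2 ratio was only 0.18, and it was -0.01 when both libraries were scaled to the same FPKM sum. The SoxB factors sox3 and sox19a, which mark neural progenitors, were the members past 2-fold, at 145 against 67.6 FPKM and 92.1 against 44.6. Over all genes compared 0.990% were that much higher. The cyclin ccnd1, which carries cells into the cycle, had 143 against 87.6 FPKM. The pan-neural RNA-binding gene elavl3, made by newborn neurons rather than by progenitors, had 410 against 338.

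**Figure D3:**
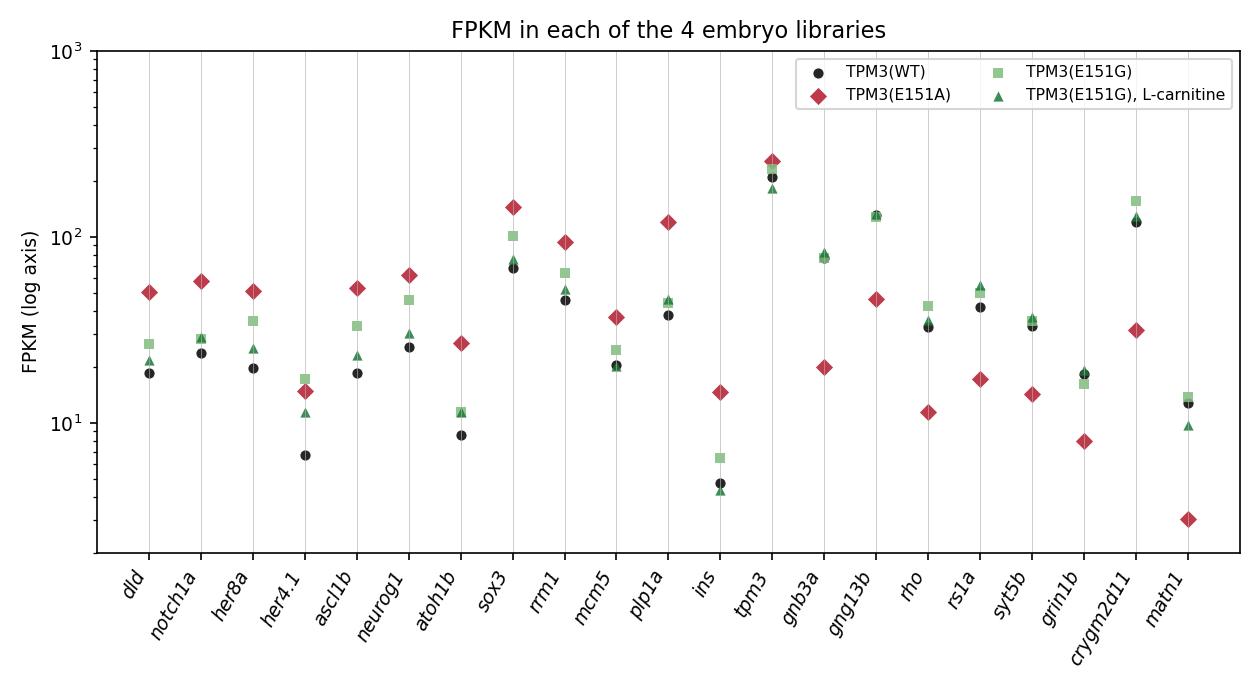
FPKM (log y axis) of 21 genes in each of the 4 embryo libraries, with TPM3(E151A) as red diamonds, TPM3(WT) as black circles and the TPM3(E151G) libraries in green. The TPM3(E151A) points stand above the others for dld, notch1a, ascl1b and plp1a, below them for gnb3a, rho, syt5b, grin1b and matn1, within their range for her4.1 and just above it for tpm3.

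Photoreceptor and retina genes were lower in TPM3(E151A) embryos. Of 43 genes on the list 25 reached 1 FPKM in either library, and 24 of these were lower in TPM3(E151A). Their median log2 ratio was -0.75 and 7 passed 2-fold, beside 0.996% of all genes compared that were that much lower. The same 24 had their lowest value of all 4 libraries in TPM3(E151A). The list summed to 289 FPKM in TPM3(E151A) and to 485, 545 and 519 in TPM3(WT), TPM3(E151G) and TPM3(E151G) with L-carnitine.

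The rod pigment gene rho had 11.5 FPKM in TPM3(E151A) against 32.9, 42.4 and 35.6 in the other libraries, and the red cone opsin opn1lw2 had 1.48 against 5.81, 6.31 and 6.65. The recoverins, calcium sensors of the light response, were lower too, with rcvrn2 at 7.62 against 20.3 FPKM and rcvrna at 6.70 against 16.8. Of the genes outside the list, gnb3a and gng13b, G protein subunits of cones and of retinal bipolar cells, were at 19.9 against 76.5 and 46.3 against 132 FPKM. The gene for the retinal adhesion protein retinoschisin, rs1a, was at 17.2 against 42.0. The factors that specify photoreceptors and bipolar cells were lower by smaller ratios, with crx at 70.9 against 124 FPKM and vsx1 at 60.1 against 108, and nr2e3, a rod factor, was at 17.7 against 20.1.

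Synapse genes were mostly lower. Of 68 release genes 2 were 2-fold or more lower, as was 1 each of 32 glutamate receptor, 22 GABA and glycine receptor and 45 scaffold genes. None in these lists was that much higher. Over all genes compared 0.996% were 2-fold or more lower and 0.990% higher. Among ionotropic and metabotropic glutamate receptors 31 of 32 were below TPM3(WT), with a median log2 ratio of -0.52, and TPM3(E151A) was the lowest library for 27. The NMDA receptor subunit grin1b had 8.01 FPKM in TPM3(E151A), 18.4 in TPM3(WT), 16.1 in TPM3(E151G) and 19.3 in TPM3(E151G) with L-carnitine, and the AMPA receptor subunit gria2b had 9.72, 18.2, 14.2 and 16.6. The exception was the delta receptor grid1a, at 2.64 against 1.52 FPKM.

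Receptors for inhibitory transmitters were similar in direction. Of 22 GABA and glycine receptor genes 19 were below TPM3(WT), with a median log2 ratio of -0.50. Among them gabrr3a, glra4b, gabrr3b and gabrz reached 1 FPKM only in TPM3(WT), so the entry rule fixed their direction. The reverse held for glra2, which reached it only in TPM3(E151A). TPM3(E151A) was the lowest library for 8 of the 22 (36.4%, beside 24.7% of all genes compared). The glycine receptor subunit glra4a was higher, at 18.5 against 11.8 FPKM.

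In the release machinery 62 of 68 genes of the active zone and vesicle release were below TPM3(WT), with a median log2 ratio of -0.40 and the lowest of the 4 values in TPM3(E151A) for 40. The vesicle calcium sensor gene syt5b had 14.2 FPKM in TPM3(E151A) against 33.3, 35.2 and 37.2 in the other libraries, and stxbp1b, of the Munc18 family that guides SNARE assembly, had 5.31 against 11.9, 9.90 and 13.6. Of 45 postsynaptic scaffold genes 38 were lower, with a median of -0.35. Potassium channel genes shared this median, with 47 of 57 lower, yet their sum of 162 FPKM in TPM3(E151A) against 212 in TPM3(WT) was close to the 156 of TPM3(E151G). General neuron markers gave a mixed picture. Of 24 compared, 18 were lower, with a median of -0.31, led by syt1a at 33.5 against 56.1 FPKM. The growth cone gene gap43 was at 37.7 against 36.6, the tubulin gene tubb5 at 491 against 460 and elavl3 at 410 against 338.

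Lens crystallins, the packed structural proteins of the lens fibre, varied among themselves. Of 49 lens genes 35 were lower, with a median log2 ratio of -0.28, and TPM3(E151A) was the lowest library for 34. The crystallin gene crygm2d11 had 31.4 FPKM in TPM3(E151A) against 121, 157 and 130 in the other libraries, and crybgx had 3.78 against 19.4, 21.6 and 21.4. The membrane protein genes lim2.1 and lim2.4 were above TPM3(WT), at 70.7 against 48.0 and 173 against 141 FPKM. The crystallin M genes are close copies of each other, and the share of fragments given to each is uncertain.

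Skeletal matrix genes were also lower. Of 22 cartilage and bone markers 18 were below TPM3(WT), and the median log2 ratio was -0.28. Past 2-fold were 5 of them, beside 0.996% of all genes compared that were that much lower. The cartilage matrix gene matn1 had 3.03 FPKM in TPM3(E151A), 12.9 in TPM3(WT), 13.7 in TPM3(E151G) and 9.69 in TPM3(E151G) with L-carnitine. The link protein gene hapln1b had 3.42, 10.4, 7.20 and 4.63 FPKM, and acana, encoding the proteoglycan aggrecan, had 1.603, 4.42, 3.03 and 3.295. The collagen genes col10a1a, of hypertrophic cartilage and bone, and col9a1a were at 3.66 against 8.78 and 13.5 against 28.8 FPKM. The chondrocyte transcription factor genes sox9a and sox9b were at 24.9 against 24.4 FPKM and 40.1 against 20.3. Over all collagens 39 of 47 were lower, with a median of -0.22.

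**Figure D4:**
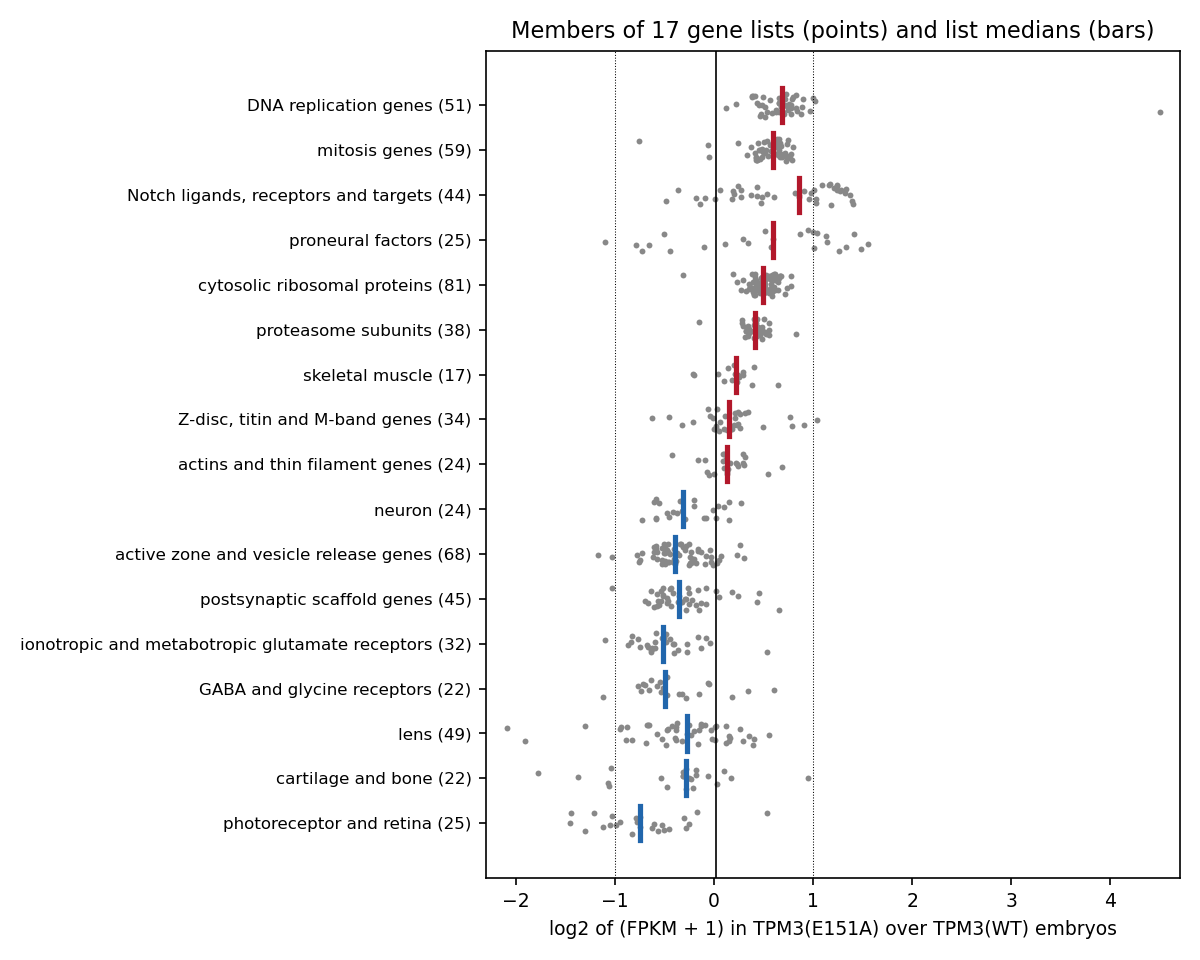
Each grey point is the log2 ratio of 1 gene in TPM3(E151A) over TPM3(WT) embryos (x axis), arranged by gene list with the number compared in brackets, and the thick bar is the list's median, red above 0 and blue below. Most DNA replication and mitosis points gather around medians of 0.68 and 0.59, with 1 rrm2 model far to the right at 4.51 and the lowest mitosis gene at -0.76. The photoreceptor points spread around -0.75, and the skeletal muscle markers lie around 0.22 (0.024 under equal FPKM sums), right of the black line that marks the median of all genes at 0.02.

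Muscle is the tissue where the transgene was driven. Of 17 skeletal muscle markers 15 were above TPM3(WT) and none passed 2-fold. Over all genes compared only 0.990% were that much higher and 0.996% that much lower. The median log2 ratio of the markers, 0.22, became 0.024 under equal FPKM sums and -0.12 after the trend on level was taken out. Zebrafish tpm3 itself had 254 FPKM in TPM3(E151A), 210 in TPM3(WT), 232 in TPM3(E151G) and 184 in TPM3(E151G) with L-carnitine. Whether fragments of the human transgene were counted for it was not tested. For tpm2 the values were 106, 81.1, 96.8 and 67.7 FPKM, for tpm4a 61.5, 56.3, 70.2 and 53.2, and for tpm4b 5.00, 8.07, 6.98 and 5.49. None of the 4 tropomyosin genes passed 2-fold, which few of all genes did. Their median log2 ratio was 0.20, or 0.0094 under equal FPKM sums.

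Medians over the lists of the sarcomere were small. They were 0.13 for 24 actins and thin filament genes, 0.13 for 17 troponins, 0.10 for 20 myosin light chains and 0.15 for 34 genes of the Z-disc, titin and M-band, and each of these turned to between -0.08 and -0.02 under equal FPKM sums. For 13 skeletal myosin heavy chains the median was -0.18, and it was 0.14 among those at 5 FPKM or more. The abundant contractile genes were slightly higher, with actc1b at 13585 against 11538 FPKM and tnnc2 at 2870 against 2405.

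A few muscle genes stood apart. The fast myosin-binding protein gene mybpc2b had 114 FPKM in TPM3(E151A), 54.9 in TPM3(WT), 90.8 in TPM3(E151G) and 68.1 in TPM3(E151G) with L-carnitine. The fast troponin I gene tnni2b.1 had 59.18, 26.6, 34.3 and 27.2, and it lies beside related copies. The glycolytic enzyme gene pfkmb had 43.5, 18.5, 35.4 and 26.5, and mustn1b, a small muscle and bone protein, had 16.8, 5.31, 10.7 and 6.90. The atrial-type light chain gene myl4 was the lowest, at 11.2 against 30.3, 26.6 and 23.7 FPKM. The giant genes ttn.1 and ttn.2 were at 18.5 against 29.1 and 25.5 against 35.3 FPKM, with TPM3(E151G) lower still at 14.6 and 20.8.

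Chaperones that fold myosin were among the higher genes. The myosin chaperone genes unc45b and hsp90aa1.1 had 16.5 against 8.89 and 39.6 against 19.2 FPKM, and the small heat shock gene hspb1 had 36.0 against 18.7. The list of 55 chaperone and heat shock genes as a whole had a median log2 ratio of 0.18, with 38 above TPM3(WT). This median became 0.013 under equal FPKM sums and 0.076 after the trend on level was taken out. Calcium handling genes were mixed. Of 28 compared 18 were above TPM3(WT), and the median of 0.06 became -0.11 under equal FPKM sums. The slow and cardiac calsequestrin gene casq2, whose product stores calcium, had 155 against 90.5 FPKM, and the pump gene atp2a1 had 3698 against 2804.

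The 10 heart markers had a median log2 ratio of -0.00, with myl4 at the low end and cmlc1 at the high end, at 5.17 against 3.55 FPKM. The gene of the reporter's own promoter, myl7, had 49.7 FPKM in TPM3(E151A) and 38.7 in TPM3(WT).

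Ribosomal protein and proteasome genes were nearly all higher. All but 1 of 81 cytosolic ribosomal protein models were above TPM3(WT), with a median log2 ratio of 0.50, and 37 of 38 proteasome genes were, with a median of 0.42. Mitochondrial ribosomal proteins, translation factors and RNA splicing genes had medians of 0.24, 0.29 and 0.23, and nuclear genes of oxidative phosphorylation 0.20. Under equal FPKM sums these became 0.054, 0.10, 0.053 and 0.0075, while cytosolic ribosomal proteins stood at 0.30 and the proteasome at 0.23. Other lists of protein turnover had medians below 0, at -0.04 for 36 autophagy genes and -0.07 for 12 atrophy and FoxO genes. Few ribosomal protein genes were highest in TPM3(E151A). The ribosomal protein genes summed to 97466 FPKM in TPM3(E151A) and 68411 in TPM3(WT), while TPM3(E151G) had 113985, and only 2 of the 81 peaked in TPM3(E151A). Of the earlier lists, 49 of 51 replication genes and 56 of 59 mitosis genes did. The 13 genes of the mitochondrial genome had a median of 0.02, and of -0.17 under equal FPKM sums.

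The ratio moved with the level of a gene. Among protein-coding genes the median log2 ratio was -0.15 in the lowest of 5 equal bins by mean FPKM and 0.18 in the highest, and by locus length it ran from 0.10 in the shortest of 5 bins to -0.06 in the longest. After the trend on level was taken out the medians were 0.66 for replication, 0.53 for mitosis, 0.78 for the Notch genes, -0.59 for photoreceptors and -0.40 for glutamate receptors, all in the same direction as before, while ribosomal proteins came to 0.20 and nuclear oxidative phosphorylation to 0.02. Taking out the trend on locus length turned the direction of none of the 44 lists described here.

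Some genes for secreted products of specialised cells were higher. The 9 hatching gland genes had a median log2 ratio of 0.39, with 7 above TPM3(WT). The hatching enzyme genes he1b and he1a, whose products digest the egg envelope, had 6.94 against 1.29 and 15.9 against 8.84 FPKM. The deposited locus of he1b is shared with 4 other gene models, so its share of fragments is uncertain. For he1a the other libraries had 5.24 FPKM in TPM3(E151G) and 2.37 in TPM3(E151G) with L-carnitine, so TPM3(E151A) was the highest of the 4. The cathepsin gene ctslb, also of the hatching gland, had 4.04 against 0.346 FPKM summed over its 2 models. The hormone gene ins had 14.6 FPKM in TPM3(E151A) and 4.77, 6.45 and 4.35 in the other libraries, sst2 had 4.94 against 0.935, 1.14 and 0.382, and gcgb had 2.35 against 0.459, 1.103 and 0.506. The ctslb models, sst2 and gcgb were below 1 FPKM in TPM3(WT), so the entry rule fixed their direction. Of the transcription factors on the islet list, isl1 was at 55.1 against 70.0 FPKM and nkx2.2a at 23.1 against 18.0. The list of 12 islet genes had a median log2 ratio of 0.11, and of -0.06 under equal FPKM sums.

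Among glial and myelin genes the ratios ran both ways. The proteolipid gene plp1a had 120 FPKM in TPM3(E151A) against 37.9, 44.3 and 46.5 in the other libraries, and the glutamate transporter gene slc1a3a of radial glia had 24.3 against 7.99, 10.28 and 9.46. The myelin gene mbpa, a product of mature myelinating cells, was at 0.471 against 1.94, 1.605 and 1.45. Being below 1 FPKM in TPM3(E151A), mbpa had its direction fixed by the entry rule. The list of 22 had a median of 0.12, and of -0.07 under equal FPKM sums. The embryonic globin gene hbbe3 had 216 FPKM in TPM3(E151A) against 81.2, 103 and 51.8, while hbbe1.2 and hbbe2 were at 433 against 481 and 137 against 141. The 19 erythrocyte genes had a median of 0.31.

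Some of the largest single ratios came from genes on none of these lists. The protein-coding gene zgc:153426 had 2.97 FPKM in TPM3(E151A) against 124, 71.4 and 73.2 in TPM3(WT), TPM3(E151G) and TPM3(E151G) with L-carnitine, the lowest ratio of any protein-coding gene. For adult muscle the labels give an age of 6 months, and the authors combined 2 libraries of each line. There the lines were close, at 4.87 FPKM in TPM3(E151A), 4.41 in TPM3(WT) and 4.99 in TPM3(E151G). For crcp, a subunit of RNA polymerase III, it was TPM3(WT) that stood apart, at 7.14 FPKM against 30.5, 30.7 and 21.4. The lipid droplet gene plin2 had 0.281 FPKM in TPM3(E151A), 3.39 in TPM3(WT) and 0.475 and 0.762 in the TPM3(E151G) libraries, and the sodium and glucose transporter gene slc5a2 had 0.027, 2.34, 0.134 and 0.125. In these 3 genes and in the chromosome 19 model of rrm2 the TPM3(WT) library was the one far from the rest. The retinoid-binding gene rbp7a, at 0.00599 against 2.78 FPKM, shares its locus with the readthrough model nmnat1-rbp7a, at 1.01 against 0.000105.

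Short RNAs gave some of the most extreme values and the least secure ones. The lowest log2 ratio of all genes compared, -9.47, belonged to none of the short RNAs named here. Among the genes past 2-fold 12 higher and 9 lower ones were short RNAs, of which 10 and 8 were listed at 0 in 1 library. SNORD75 was listed at 561 FPKM in TPM3(E151A) and SNORD12 at 220 in TPM3(WT), each at 0 in the other 3 embryo libraries. No fold is given for these. Of the higher genes 79.9% were protein-coding and of the lower genes 84.6%, beside 97.4% of all genes compared. The genes counted were also shorter, with a median locus of 9.26 kb for the higher and 15.3 kb for the lower genes against 23.6 kb over all.

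Immune genes showed little difference. The 31 Toll-like receptor signalling genes had a median log2 ratio of -0.05, and none passed 2-fold in either direction. Over all genes compared the shares past 2-fold were 0.990% higher and 0.996% lower. For 26 cytokine, chemokine and acute phase genes and 8 interferon-stimulated genes the median was -0.04. Complement genes had a median of 0.16, or 0.041 under equal FPKM sums, with 14 of 18 above TPM3(WT). Liver and plasma protein genes had a median of 0.13, or -0.05 under equal FPKM sums. The 48 hox genes, which set position along the body axis, had a median of 0.18, or 0.013 under equal FPKM sums. None of them passed 2-fold, beside the same small shares over all genes. Of 36 circadian clock genes 27 were lower, with a median of -0.19, led by the nuclear receptor gene rorab at 18.1 against 38.1 FPKM.

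The genes that the study had measured by qRT-PCR in embryos were weak in these libraries. Of 14 on that list 11 reached 1 FPKM, and 10 of these were below TPM3(WT), but the study chose them on these samples, so their direction is no independent evidence. Any member that reached 1 FPKM only in TPM3(WT), such as abcc6a, was also lower by the entry rule. The median log2 ratio of the list was -0.70. At an FPKM minimum of 5 only stat5b was left, at 0.023, so that value is not a median over the list. The ATP-binding cassette transporter gene abcc6a had 0.372 FPKM in TPM3(E151A), 1.81 in TPM3(WT), 0.445 in TPM3(E151G) and 0.367 in TPM3(E151G) with L-carnitine. The neurotrophin receptor gene ntrk2b had 1.67, 3.57, 0.903 and 3.11. The transcription factor gene stat5b, which relays cytokine signals, was level at 6.38 against 6.26 FPKM.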

How the data were processed

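The comparison used 1 library of TPM3(E151A) and 1 of TPM3(WT) embryos, grouped by their labels. Ribosomal RNA was depleted before sequencing. The study mapped read pairs to GRCz11 with HISAT2 after adapter and quality trimming, and the submitters' processing notes name bcl2fastq 2.20, Trimmomatic 0.36 and featureCounts 1.6.3. The authors deposited 1 FPKM value per gene for each embryo line, and for adult muscle 1 FPKM value over 2 libraries. Deposited ratio, p-value and q-value columns hold the authors' own comparisons and were not used. Genes with at least 1 FPKM in 1 or both libraries entered, with a pseudocount of 1 before the log2 ratio (Python 3.11.15, pandas 2.3.3). Depth could be estimated only relative to TPM3(WT). The members, the named genes, the 90 lists written first and the 4 added later were chosen with earlier results of these data known. Named genes were the 20 in each direction with the largest ratio and no clone-based symbol, the list members with the largest ratios or highest FPKM, further members where a list's count is described, the genes of the qRT-PCR list and the sarcomere genes. The genes gnb3a, gng13b, rs1a and pfkmb, the runs of her genes and the clone-named genes were picked after their values were seen. Positions are as deposited, and a locus can hold several genes. Alternatives were other fold limits, pseudocounts, FPKM minimums and scalings, protein-coding genes alone, and removal of trends on locus length and level. The calculation was tested on simulated data. Some genes are not reported here.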

Additional observations from a re-analysis of the deposited data

How the results depend on the processing

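With 1 library per line no error can be set on any ratio, and FPKM without counts gives no counting interval. No paired analysis was possible because each line has 1 library. At a fold limit of 1.5 the counts were 883 higher and 979 lower, and at 3 they were 35 and 27. A pseudocount of 0.1 gave 352 and 563, an FPKM minimum of 5 gave 104 and 92, equal FPKM sums gave 147 and 444 (24.9% of calls higher, and 38.5% at a pseudocount of 0.1, beside 49.9% as reported), and the remaining alternatives (no minimum, median-of-ratios scaling, protein-coding genes only) stayed within 1.5 times. With a pseudocount of 1, genes under 1 FPKM in both libraries cannot reach 2-fold, so dropping the minimum could not change the counts. The median-of-ratios factor was 1.003, so that scaling changed the values very little. Equal sums turned the median of all genes to -0.15, and 10 list medians turned below 0, to -0.11 for calcium release, -0.024 for thin filaments, -0.056 for troponins, -0.079 for myosin light chains, -0.045 for the Z-disc, -0.17 for the mitochondrial genome, -0.070 for glia, -0.048 for liver, -0.062 for islet and -0.010 for neural progenitors. An FPKM minimum of 5 turned myosin heavy chains to 0.14, heart to 0.057, islet to -0.015 and the qRT-PCR genes to 0.023. For the qRT-PCR genes only stat5b was left at that minimum. Removing the trend on level, an alternative chosen after seeing the data, turned calcium release to -0.0065, troponins to -0.020, myosin light chains to -0.064, the mitochondrial genome to -0.33, skeletal muscle to -0.12 and glia to -0.031, and Toll-like receptor genes to 0.011, cytokines to 0.049, interferon-stimulated genes to 0.093 and heart to 0.070. Equal sums moved the other 34 list medians without turning them. No list among the 44 turned under median-of-ratios scaling, a pseudocount of 0.1 or removal of the length trend, and no named gene of 40 turned under any of its 3 alternatives. Median-of-ratios scaling moved the median of all genes by only -0.0034. The 40 genes were picked for large ratios, and a pseudocount cannot turn a single gene, so their lack of turns shows little.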

Other observations

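Among the genes with the largest ratios, the libraries that stood apart were not always the same. The gene lratb.2, of the family that esterifies retinol, had 1.80 FPKM in TPM3(E151A), 7.40 in TPM3(WT), 7.87 in TPM3(E151G) and 8.02 in TPM3(E151G) with L-carnitine, so TPM3(E151A) was the low one. The same held for pcp4l1, a small calmodulin-binding protein related to a Purkinje cell protein, at 5.92 against 19.4, 21.5 and 19.0 FPKM. For the ciliary gene CCDC39 the high library was TPM3(WT), at 4.80 FPKM against 0.989 in TPM3(E151A), 0.983 in TPM3(E151G) and 1.25 in TPM3(E151G) with L-carnitine. The protocadherin pcdh2ab9, at 0.823 against 4.14 FPKM, shares its deposited locus with 15 other gene models. One of 2 models of scg5, a neuroendocrine chaperone, was at 3.61 FPKM in TPM3(E151A), 0.288 in TPM3(WT), 0.353 in TPM3(E151G) and 3.42 in its L-carnitine library, while the other model had 2.85 against 4.67 FPKM in TPM3(E151A) and TPM3(WT). The gene mrap, an accessory protein of melanocortin receptors, had 2.56 FPKM in TPM3(E151A) against 0.112, 1.06 and 0.345 in the other libraries. For notum1b, of the Notum family of Wnt-inactivating enzymes, the value was 3.15 FPKM in TPM3(E151A), and it was listed at 0 in the other 3.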
